A study of Canis lupus familiaris with 6 samples.

Results

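Genes of smooth muscle cells and pericytes were compared between the left ventricles of control dogs and of Great Danes with cardiomyopathy. The set held 8 of the 15115 genes named on the array, ACTA2, TAGLN, MYH11, CNN1, RGS5, PDGFRB, NOTCH3 and CSPG4. Their members were all probe sets whose annotation gave exactly 1 gene symbol, equal to one of these names. This gave 17 of the 43035 probe sets in the deposited table, and none was filtered out. A further probe set annotated to a member together with a second gene was left out. Total RNA of frozen tissue was hybridised to Affymetrix canine arrays, with 3 dogs per group and each dog on its own array. Control 1 was a male Labrador retriever aged 12 years, control 2 a female St. Bernard aged 10 years and control 3 a male Greater Swiss Mountain dog aged 4 years. Affected 1 was a female aged 9 years, and affected 2 and affected 3 were males aged 7 years, all of them Great Danes. Every affected dog and no control was a Great Dane, so breed and disease cannot be told apart. The labels give no treatment or stage of disease.

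Vascular smooth muscle cells and pericytes are the mural cells of blood vessels. Smooth muscle wraps arteries and arterioles and contracts through a dedicated set of actin, myosin and regulatory proteins. Pericytes sit on capillaries, where endothelial cells recruit and keep them through PDGF and Notch signals. Activated fibroblasts of an injured heart, called myofibroblasts, also make ACTA2 and TAGLN, whereas MYH11 is the usual mark of mature smooth muscle. The set was therefore read beside genes of myofibroblast activation.

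Values are on the log2 scale and were centred on each probe set's median over the 6 arrays, so 0 is the middle of the 6 dogs and 1 is a doubling. They hold no level. The abundance of one gene against another, and the presence of the labelled tissue's defining markers, could therefore not be read from them. In bulk tissue fewer cells of a type and less RNA per cell cannot be told apart. Differences are affected minus control, tested with limma over 42924 probe sets without array controls, and n = 3 dogs against 3 throughout.

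No difference between affected and control hearts passed the test in any of the 17 probe sets. At a limma adjusted p under 0.05, 0 of the 17 passed, against 0.00233% of all probe sets, which is 1 probe set. At an unadjusted limma p under 0.05, 0 of the 17 passed as well, against 10.9% of all probe sets (4.53% higher and 6.32% lower). With each array centred on its own median that background was 5.56% higher and 2.56% lower, and again 0 of the 17 passed. Differences ran from -0.47 to 0.57, with 8 above 0 (against 33% of all probe sets) and 9 below, and a median of -0.035 against -0.080 over all probe sets. The lowest limma adjusted p among the members was 0.296. All 17 intervals of 95% included 0, and in 13 of them the interval also took in a 2-fold change in some direction, so differences of that size could not be resolved with 3 dogs a group. The dogs themselves varied widely. The range over the 6 arrays was at least 1 in 15 of the 17 probe sets, against 23.6% of all probe sets.

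**Figure D1:**
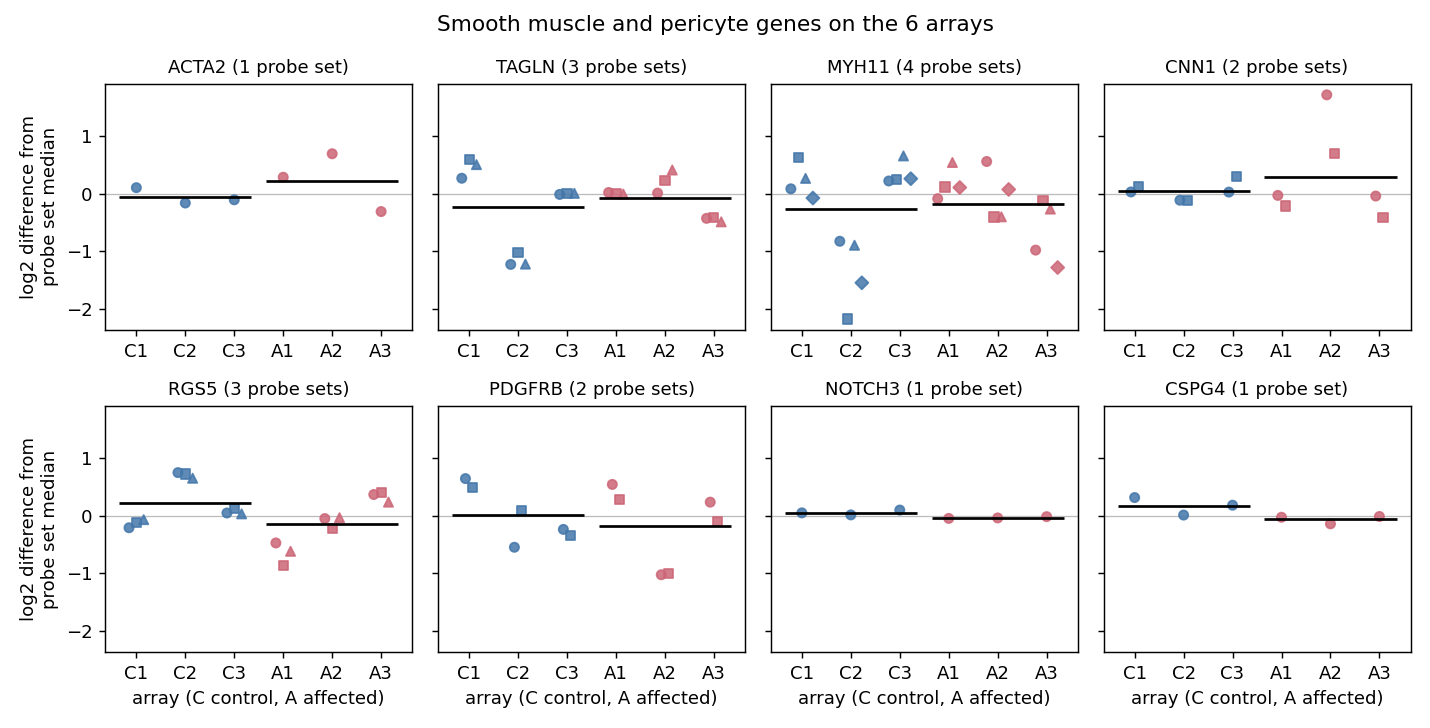
Log2 difference from the probe set median (vertical axis) for each of the 8 genes on the 3 control arrays (C1 to C3, blue) and the 3 affected arrays (A1 to A3, red), with a different marker shape for each probe set of a gene and black lines at the group means of the gene. The groups overlap in 6 genes. In NOTCH3 and CSPG4 every affected value lies below every control value, as in 46.9% of all probe sets, and NOTCH3 lies close to 0 on all arrays.

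**Figure D2:**
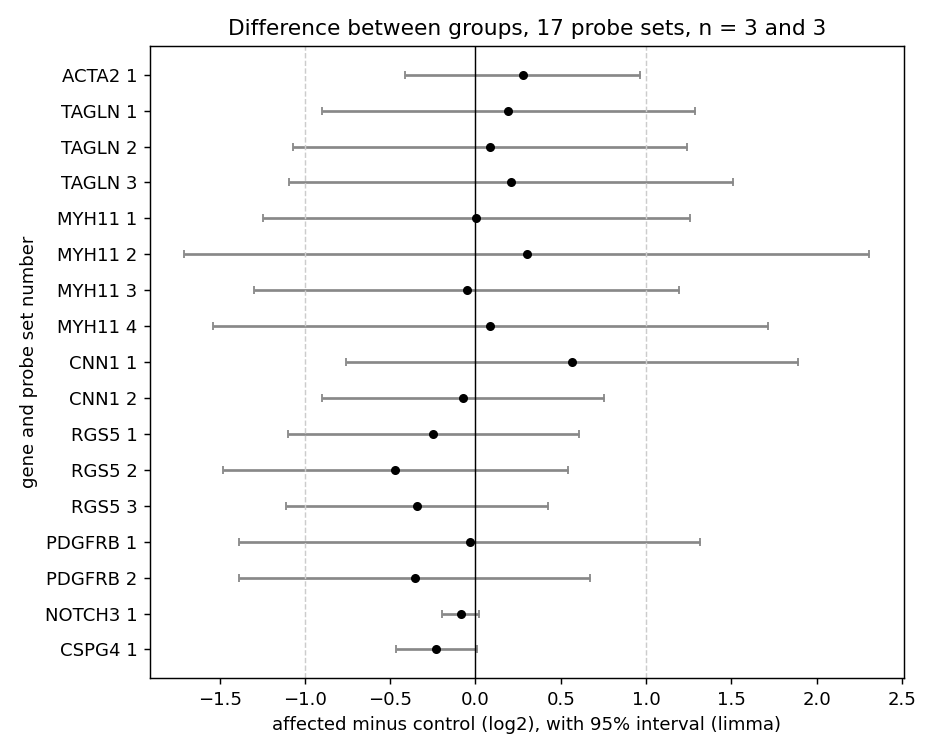
Affected minus control difference (horizontal axis, log2) of each of the 17 probe sets with its 95% interval from limma, n = 3 and 3, numbered within each gene in order of probe set name. Dashed lines mark a 2-fold change, and every interval includes 0.

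Among the contractile proteins, ACTA2 encodes the alpha actin of smooth muscle and is the common label of myofibroblasts. Its single probe set read 0.11, -0.16 and -0.11 on controls 1 to 3 and 0.29, 0.69 and -0.31 on affected 1 to 3. Affected 2 was the highest and affected 3 the lowest of all 6 dogs, so the affected group spanned the controls. The difference was 0.28 (SE 0.27, 95% interval -0.41 to 0.97, limma adjusted p = 0.469), or 1.21-fold with an upper limit of 1.95-fold. The difference depended on single dogs, being 0.54 without affected 3 (limma adjusted p = 0.463) and 0.042 without affected 2 (limma adjusted p = 0.891).

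TAGLN encodes transgelin, an actin-binding protein of smooth muscle that is also induced in myofibroblasts. The mean of its 3 probe sets was 0.46, -1.16 and -0.0016 on the controls and 0.0049, 0.22 and -0.44 on the affected arrays. Control 2 stood far below the other dogs, and affected 3 was next lowest. The 3 probe sets differed by 0.084, 0.19 and 0.21 between the groups, with SE from 0.43 to 0.51. They gave much the same picture, lying at most 0.40 apart on any array. Without control 2 all 3 differences turned negative, from -0.26 to -0.36.

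MYH11 encodes the myosin heavy chain of smooth muscle and had 4 probe sets. The one with the widest range (MYH11 2 in the plot of differences) read 0.62, -2.18 and 0.25 on the controls and 0.12, -0.40 and -0.12 on the affected arrays, a difference of 0.30 (SE 0.79, limma adjusted p = 0.791). MYH11 3, annotated to the same transcript record, read 0.27, -0.90 and 0.66 on the controls and 0.54, -0.40 and -0.27 on the affected arrays. Control 2 was again the lowest dog in both. The name of MYH11 3 ends in x_at, the suffix of probe sets that may bind similar sequences of other genes.

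The other MYH11 probe sets placed the affected dogs differently. MYH11 1 read 0.086, -0.83 and 0.22 on the controls and -0.086, 0.56 and -0.98 on the affected arrays. MYH11 4 read -0.075, -1.55 and 0.26 on the controls and 0.11, 0.075 and -1.28 on the affected arrays. In this pair affected 3 was as low as, or close to, control 2, which the first pair did not show. Over the 4 probe sets the differences were -0.051, 0.0045, 0.087 and 0.30, with SE from 0.49 to 0.79, and 3 of them turned negative without control 2 (-0.32, -0.46 and -0.57).

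CNN1 encodes calponin, a regulator of actin and myosin in smooth muscle. The probe set CNN1 1 read 0.031, -0.11 and 0.029 on controls 1 to 3 and -0.029, 1.72 and -0.040 on affected 1 to 3. The other 5 dogs were thus near 0 and a single affected dog stood above them. CNN1 2 read 0.12, -0.12 and 0.30 on the controls and -0.21, 0.70 and -0.41 on the affected arrays, so affected 2 was highest in both. CNN1 1 differed by 0.57 with a limma adjusted p of 0.443 (SE 0.52), and CNN1 2 by -0.075 with a limma adjusted p of 0.877 (SE 0.32). Without affected 2 the first was -0.017.

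Of the genes that mark pericytes, RGS5 encodes a regulator of G-protein signalling that is enriched in capillary pericytes. The mean of its 3 probe sets was -0.13, 0.71 and 0.068 on the controls and -0.65, -0.10 and 0.34 on the affected arrays. Control 2 was the highest dog and affected 1 the lowest in each of the 3 probe sets. The differences were -0.25, -0.34 and -0.47, with SE of 0.33, 0.30 and 0.40 and limma adjusted p of 0.600, 0.424 and 0.409. Without control 2 they were 0.030, -0.12 and -0.23, and without affected 1 they were -0.036, -0.10 and -0.15, so they were smaller without either of these dogs.

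PDGFRB encodes the receptor through which mural cells answer endothelial PDGF. Its first probe set read 0.65, -0.55 and -0.24 on the controls and 0.55, -1.02 and 0.24 on the affected arrays. The second read 0.50, 0.095 and -0.34 on the controls and 0.29, -1.01 and -0.095 on the affected arrays. Affected 2 was the lowest dog in both, the dog in which ACTA2 and CNN1 were highest. The first differed by -0.035 with a limma adjusted p of 0.965 (SE 0.53), and the second by -0.36 with a limma adjusted p of 0.533 (SE 0.40). Without affected 2 they were 0.44 and 0.013, and after quantile normalization of all 6 arrays -0.31 and -0.70.

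NOTCH3 encodes the Notch receptor of arterial smooth muscle and pericytes, and CSPG4 a surface chondroitin sulfate proteoglycan of pericytes. NOTCH3 read 0.051, 0.015 and 0.099 on the controls and -0.046, -0.038 and -0.015 on the affected arrays. CSPG4 read 0.32, 0.012 and 0.18 on the controls and -0.026, -0.14 and -0.012 on the affected arrays. Every affected value lay below every control value in these 2 genes, as in 46.9% of all probe sets. In 0 members did every affected value lie above every control value, against 5.37% of all probe sets, and in 52.2% of all probe sets the groups did not overlap in some direction. The differences were small, -0.088 (SE 0.043) for NOTCH3 and -0.23 (SE 0.093) for CSPG4, each at a limma adjusted p of 0.296. With arrays centred on their median they were -0.015 and -0.16, and after quantile normalization -0.023 and -0.21.

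A small offset in the same direction appeared in 17 array controls for synthetic tag sequences. Their medians were 0.056, 0.011 and 0.11 on the controls and -0.028, -0.033 and -0.011 on the affected arrays. NOTCH3 lay within the range of the tags on 6 of 6 arrays, and CSPG4 on 4, the exceptions being control 1 (0.32, highest tag 0.11) and affected 2 (-0.14, lowest tag -0.056). The remaining 15 probe sets lay within it on at most 2 arrays. The part of this offset in the NOTCH3 and CSPG4 differences was not tested.

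**Figure D3:**
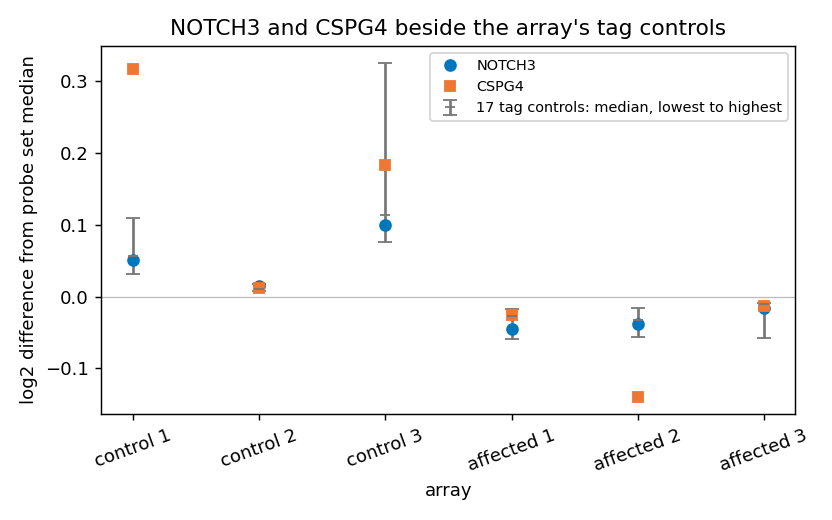
NOTCH3 (circles) and CSPG4 (squares) on each array (horizontal axis), as log2 difference from the probe set median (vertical axis), beside the median and the lowest to highest value of 17 tag controls (grey). NOTCH3 lies inside the tag range on all 6 arrays, and CSPG4 lies outside it on control 1 and affected 2.

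ACTA2 and TAGLN were then set beside myofibroblast activation, a list of 18 genes of which 16 had probe sets. Here 14 of 16 genes lay above 0 with a median difference of 1.53, against 35% of all genes above 0 and a median of -0.07 over all genes. The median of the list ran from 0.93 (without control 3) to 1.92 (without control 2) when single arrays were left out and was 1.26 after quantile normalization. Of its 41 probe sets 0 passed the limma adjusted threshold. At an unadjusted limma p under 0.05, 13 were higher and 1 was lower, against 4.53% and 6.32% of all probe sets. Matrix and fibroblast genes of this list were chosen with their values on these arrays known, so its direction is not independent evidence.

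The genes of the list with the smallest p were CDH11, an adhesion molecule of activated fibroblasts, the cartilage matrix protein CILP, the surface protein THY1 and the collagen gene COL1A1. The CDH11 probe sets differed by 3.29 (SE 0.39) and 0.68, and those of CILP by 4.25 and 2.69. THY1 differed by 2.67 and 2.39, and COL1A1 by 1.83, 2.23 and 1.20. Affected dogs lay above all controls in the mean of each of these genes, as in 5.37% of all probe sets. The genes were picked by their p on these same arrays, so this separation is no further evidence. With only probe sets of a range of at least 1, where 91 of 10128 (0.898%) passed in all, 6 probe sets of the list passed, both of CILP and one each of CDH11, THY1, POSTN and THBS4 (limma adjusted p from 0.00115 to 0.0396), while 0 of the 15 member probe sets kept there passed (lowest limma adjusted p = 0.571). A large difference between the groups itself helps a probe set pass this filter.

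ACTA2 and TAGLN did not follow the list over the dogs. The median of the list was -0.30, -0.21 and -1.28 on the controls and 0.98, 0.12 and 0.62 on the affected arrays. The list was thus highest on affected 1 and affected 3, where some array controls stood apart. Poly-A spikes read 0.58 and 2.38 there against -0.19 to -0.0063 elsewhere, and a 3' minus 5' difference of beta-actin read 0.42 and 1.05 against -0.46 to 0.082 elsewhere. A second 3' minus 5' difference of beta-actin read 0.36 and -0.051 there against -0.31 to 0.34 elsewhere. For GAPDH a 3' minus 5' difference read 0.057 and -0.0020 there against -0.082 to 0.019 elsewhere. Another of GAPDH read -0.013 and -0.064 there against -0.19 to 0.30 elsewhere. The part of these in the list was not tested, and for affected 2 alone against the controls its median was 0.93. Affected 3, second highest for the list, was the lowest dog for ACTA2 and second lowest for TAGLN. Affected 2, the highest dog for ACTA2, was the lowest affected dog for the list. Control 3 was the lowest dog for the list, whereas TAGLN was in the middle there and lowest in control 2. In 9 of the 16 genes the difference was larger than 0.97, the upper end of the interval of ACTA2. The upper ends for the TAGLN probe sets were 1.28, 1.24 and 1.51. This count leaves out the errors of the list genes and stands without the share of all genes above 0.97. It is therefore no test of the list against ACTA2 or TAGLN. Fibroblast markers had 7 of 10 above 0, against 35% of all genes. Their medians were 0.03, -0.09 and -0.55 on the controls and 0.73, -0.12 and 0.65 on the affected arrays. The part of fibroblast markers in the values of the list was not tested.

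**Figure D4:**
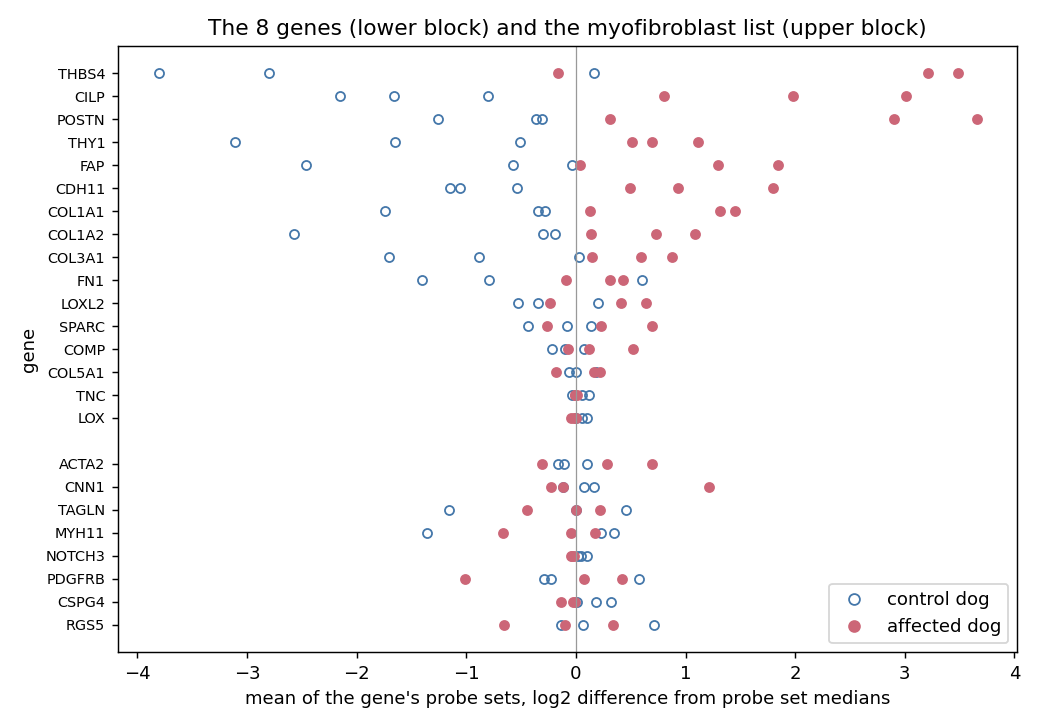
Mean of the probe sets of each gene on each of the 6 arrays (horizontal axis, log2 difference from probe set medians) for the 8 smooth muscle and pericyte genes (lower block) and 16 genes of myofibroblast activation (upper block), each block sorted by the difference between groups, with open blue circles for control dogs and filled red circles for affected dogs. The groups separate in CILP and CDH11, which are among the list genes with the smallest p. They overlap in ACTA2 and TAGLN, and also in list genes such as FN1 and SPARC.

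Within each array ACTA2 was compared with MYH11, the gene of mature smooth muscle that myofibroblasts do not usually make. ACTA2 minus MYH11, on the means of their probe sets, was -0.12, 1.20 and -0.45 on the controls and 0.12, 0.74 and 0.35 on the affected arrays. The groups overlapped, and the difference between them was 0.19 (exact permutation test, two-sided, p = 0.7), where 0.1 is the smallest p that 3 against 3 allows. TAGLN minus CNN1 was 0.38, -1.04 and -0.17 on the controls and 0.13, -0.99 and -0.22 on the affected arrays. Here control 2 and affected 2 were the low dogs, one in each group, and the difference was -0.085 (exact permutation test, two-sided, p = 0.8).

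Members other than NOTCH3 and CSPG4 fell into distinct patterns over the dogs that crossed the groups. In the means of their probe sets TAGLN and MYH11 were both lowest in control 2 and next lowest in affected 3. These were the dogs in which the RGS5 mean was highest and second highest. The MYH11 probe sets differed here. Affected 2 was next lowest in MYH11 2 and MYH11 3, and affected 3 was lowest in MYH11 1. The order of the 6 dogs for the RGS5 mean ran from affected 1 through control 1, affected 2, control 3 and affected 3 to control 2. The median of 10 endothelial markers had the same order. It was -0.18, 0.54 and 0.0020 on the controls and -0.46, -0.068 and 0.21 on the affected arrays, at most 0.19 from the RGS5 mean on any array. Single markers could differ from this order, as PECAM1 and CLDN5 were highest on control 3 and VWF on affected 3. Of these markers 6 were highest on control 2 and 6 were lowest on affected 1. This likeness was noticed after the values were seen, and the part of endothelial content in the RGS5 values was not tested.

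**Figure D5:**
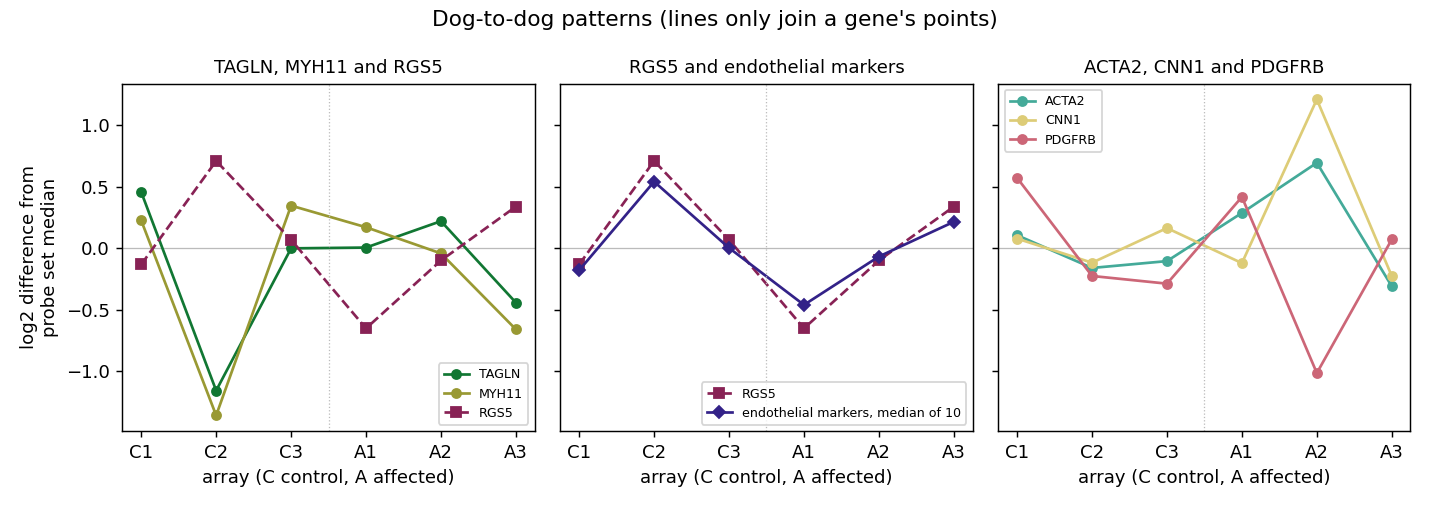
Log2 difference from the probe set median (vertical axis; gene means over probe sets, and the median of 10 endothelial markers) on the 3 control (C1 to C3) and 3 affected (A1 to A3) arrays, with lines that only join the points of a gene. TAGLN and MYH11 are lowest and RGS5 is highest on control 2. RGS5 and the median of the endothelial markers share an order. On affected 2 ACTA2 and CNN1 are highest and PDGFRB lowest.

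The nearest genes in pattern were taken by the root mean square difference of log2 values over the 6 arrays, among the other 15114 genes. Each gene was represented by its probe set with the widest range, and the 6 members where this range was at least 1 were used. The neighbours thus belong to 1 probe set of a member, such as MYH11 2 and CNN1 1. Probe sets lay up to 1.35 apart on 1 array in MYH11 and up to 1.02 in CNN1. RGS5 lay nearest to ABLIM3, an actin-binding LIM protein (0.10), and EMCN, the endothelial sialomucin endomucin (0.15). PDGFRB lay nearest to TSC22D3, a glucocorticoid-induced gene (0.12), and DDX10 (0.17). ACTA2 was nearest to CMSS1 (0.12) and PMS1 (0.13), and CNN1 to CCDC15 (0.069) and CNBD2 (0.10). TAGLN was nearest to PREPL (0.24) and ADH4 (0.28), and MYH11 to BBX (0.30) and OTUD6B (0.31). No member of the set was among the nearest of another. With 6 arrays and this many genes, close patterns are easily met.

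Other contractile and cytoskeletal proteins of smooth muscle, 19 of 20 listed genes with 48 probe sets, had 11 genes above 0 and a median difference of 0.14. This median was 0.026 without control 2, 0.044 without affected 2, 0.079 without affected 1, 0.29 without control 1, 0.055 after quantile normalization and 0.22 with arrays centred on their median. At the unadjusted limma threshold, 5 probe sets were higher and 3 lower, against 4.53% and 6.32% of all probe sets, and 0 passed the adjusted threshold. Of all genes 35% lay above 0, and this share is also the background of the lists that follow. TPM1, a tropomyosin shared with heart muscle, differed by 1.45, 0.79, 0.24 and -0.25 over its probe sets, and the LIM protein PDLIM7 by 1.44, 0.53 and -0.078. Filamin A (FLNA) differed by 0.71, 0.41, 0.40 and 0.20. Smoothelin (SMTN), a protein of contractile smooth muscle, differed by -0.75, 0.42 and 0.27. Probe sets of one gene thus pointed in different directions in TPM1, PDLIM7 and SMTN. Control 2 was the lowest dog in 6 of the 19 genes and control 3 in 4. Affected 1 was the highest dog in 6 and affected 2 in 4.

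Regulators of the smooth muscle programme, 15 genes with 29 probe sets, had 5 genes above 0 and a median of -0.06, which was 0.01 with arrays centred on their median and 0.01 after quantile normalization. By limma 0 probe sets passed the adjusted threshold. At the unadjusted one, against 4.53% higher and 6.32% lower over all probe sets, 1 was higher and 1 lower. These were the zinc finger factor KLF5 at 1.24 (SE 0.32) and GATA6 at -0.44 (SE 0.12), which differed by -0.62 (SE 0.44) in its second probe set. SRF, the serum response factor that binds the promoters of contractile genes, differed by 0.093, 0.36 and -0.035. KLF4, a repressor of these genes, differed by 0.52 and -0.23.

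Other pericyte genes, 17 of 20 listed with 35 probe sets, had 11 genes above 0 and a median of 0.11, which turned to -0.05 without affected 1. Of these, 4 probe sets were higher and 2 lower at the unadjusted limma threshold (4.53% and 6.32% over all probe sets), and 0 passed the adjusted one. MCAM, an adhesion molecule of mural and endothelial cells, differed by 1.10 (SE 0.18), 0.87 (SE 0.16) and 0.63 (SE 0.11) in 3 probe sets and by -0.074 and -0.047 in the other 2 (limma adjusted p = 0.296 for the first 3). In the first 3 all affected dogs lay above all controls, as in 5.37% of all probe sets, and MCAM was itself picked by its p on these arrays. Vitronectin (VTN) differed by 0.82, 0.37, 0.023 and -0.20, the mitochondrial protein NDUFA4L2 by -1.11 (SE 0.39) and the laminin chain LAMC3 by -0.084.

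Among the partners of PDGFRB, the 6 genes had 3 above 0 and a median of -0.08, which turned to 0.05 without control 1 and to 0.07 without control 2. Of 7 probe sets 1 was higher and 0 lower at the unadjusted limma threshold (4.53% and 6.32% over all probe sets), and 0 passed the adjusted one. The receptor-like gene PDGFRL differed by 2.09 (SE 0.70), and the ligands PDGFA by -0.17, PDGFB by -0.43 and -0.092, and PDGFD by 1.16 (SE 0.70). Among Notch ligands, receptors and targets, 8 of 12 listed genes were measured with 12 probe sets, 2 genes lay above 0 and the median was -0.15, which was -0.074 with arrays centred on their median, -0.071 after quantile normalization and -0.22 without affected 3. Here 1 probe set was lower and 0 higher at the unadjusted limma threshold (6.32% and 4.53% over all probe sets), and 0 passed the adjusted one. The ligand JAG1 differed by -0.51 (SE 0.17), -0.24 and -0.18, JAG2 by -0.21, the target HEY1 by -0.20 and the receptor NOTCH2 by -0.41. The tag controls were lower on the affected arrays too.

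Over the arrays as a whole, spiked control transcripts stood apart on affected 1 and affected 3, where the median of the bioC spike was -1.53 and -1.28, against -0.036 to 0.14 elsewhere. Affected 2 alone, set against the 3 controls once the values had been seen, is 1 dog and gives values with no test of the groups. They were 0.75 for ACTA2, 1.74 and 0.60 for CNN1, and -0.98 and -1.09 for PDGFRB, the genes already described as extreme in that dog. Cardiomyocyte markers differed by a median of 0.14 with 9 of 11 genes above 0, against 35% of all genes. Macrophage and monocyte markers were highest on affected 1 (2.04) and control 1 (0.70), and lay between -0.42 and -0.014 on the other arrays. Adipocyte markers were highest on affected 1 (1.28) and lay between -0.32 and 0.23 elsewhere. The part of these cells in the values of the members was not tested.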

How the data were processed

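Affymetrix canine arrays of 6 left ventricles, 3 per group, were used. The authors deposited log2 values, a scale inferred from GCRMA and MAS5, which the submitters' processing notes name without role or version, and from the range of the values. Each deposited probe set has a median of 0 over the 6 arrays (largest absolute median 5e-07). A genome build is not given in the sources used here.

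The 111 array controls were left out of the tests. Of 42924 probe sets, 29254 had 1 gene symbol in the platform annotation, 439 several and 13231 none or were not listed. The comparison of groups used limma 3.58.1 under R 4.3.3 (lmFit, eBayes without trend, 4 residual and 1.13 prior degrees of freedom, two-sided, Benjamini-Hochberg over all probe sets, threshold 0.05), with no filter or covariate. A gene's value is the mean of its probe sets, except in the search for nearest patterns, which used the widest-range probe set of each gene. Of the steps, only the limma fit was tested on simulated data. Each array was taken as 1 dog, so p-values measure the spread between dogs, and for arrays their number limits precision.

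Named genes were all members, up to 4 genes per related list with the smallest p, and 2 nearest patterns per member. The members and lists were chosen with earlier results of these data known. Alternatives were filters on range, scalings, sex, age, a replicate block, a robust fit, a term for affected 1 and affected 3, the widest-range probe set, and each array left out.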

Additional observations from a re-analysis of the deposited data

How the results depend on the processing

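The count of member probe sets past the adjusted threshold was 0 under all 15 alternatives. At an unadjusted limma p under 0.05 the count of higher ones ran from 0 to 1 with single arrays left out. The 1 was ACTA2 without affected 3, where 3.1% of all probe sets were higher. The count of lower ones was 1 with the replicate block (CSPG4, limma adjusted p = 0.357), against 5.27% of all probe sets. It ran from 0 to 2 with single arrays left out. The 2 were NOTCH3 and CSPG4 without control 2, where 28.5% of all probe sets were lower. With the term that sets affected 1 and affected 3 apart, differences were 0.75 for ACTA2, 1.74 and 0.60 for CNN1, and -0.98 and -1.09 for PDGFRB. That fit rests on 1 affected dog and was chosen after the values were seen, so it is no test of the groups. Deviations from the group mean correlated at 0.27, 0.15 and 0.022 between same-numbered dogs. With 3 dogs a group these values cannot show whether the numbers pair the dogs, and the main test used no pairing. With a range of at least 1, 6 probe sets of the related lists passed; fewer probe sets were tested there and the prior degrees of freedom were 14.5 in place of 1.13, and which of these mattered was not tested. That filter kept neither NOTCH3 nor CSPG4, and leaving out the lowest 40% by range dropped NOTCH3.

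ACTA2, NOTCH3, CSPG4 and 2 of the RGS5 probe sets kept their sign in all alternatives that kept them; the cause of the reversals in the others was not tested. With single arrays left out, TAGLN ran from -0.26 to 0.49, -0.36 to 0.45 and -0.28 to 0.58. MYH11 ran from -0.36 to 0.41, -0.57 to 0.83, -0.50 to 0.27 and -0.46 to 0.55. CNN1 ran from -0.017 to 0.86 and -0.41 to 0.14, and the third RGS5 probe set from -0.46 to 0.030. PDGFRB ran from -0.35 to 0.44 and -0.64 to 0.013. The ACTA2 minus MYH11 difference ran from -0.14 to 0.69 and TAGLN minus CNN1 from -0.47 to 0.24. Signs also turned in MYH11 (0.022) and PDGFRB (0.038) with arrays centred on their median, in MYH11 (-0.041) and PDGFRB (0.066) with age, in CNN1 (0.60) with the term for affected 1 and affected 3, and in ACTA2 minus MYH11 (-0.024) with the widest-range probe set of each gene.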
